A study of Mus musculus with 4 samples.

Results

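The 8 interferon regulatory factor (IRF) genes Irf1, Irf2, Irf3, Irf4, Irf5, Irf7, Irf8 and Irf9 were read by symbol from a table of 23735 loci, where each stood on 1 locus of its own, and all 8 were among the 10074 loci tested. RNA came from thioglycolate-elicited peritoneal macrophages of C57BL/6 mice aged 6 weeks, collected 3 days after 3% thioglycolate and then cultured in medium with 10% fetal bovine serum. The Ch25h_WT group carried ApoE-/-/Ch25h+/+ and the Ch25h_KO group ApoE-/-/Ch25h-/-, so both genotypes are labelled as lacking apolipoprotein E, and they differ in Ch25h, the gene of cholesterol 25-hydroxylase. Each group held 2 libraries, called biological duplicates and drawn from 12 mice per group, and how the mice were divided between libraries is not stated in the labels, so p-values measure the spread between these libraries only. The question put to these libraries here is how IRF genes differ between the 2 genotypes.

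IRF proteins bind DNA through a conserved N-terminal domain that reads repeats of GAAA, and they set the transcriptional output of interferons and pathogen sensors. IRF3 and IRF7 are phosphorylated downstream of nucleic acid and lipopolysaccharide sensors and switch on type I interferon genes, IRF9 is the DNA-binding part of the complex ISGF3 that reads the interferon signal, and IRF1 extends it on genes induced by interferon gamma, where IRF2 competes for the same sites. IRF5, IRF4 and IRF8 are tied to macrophage state: IRF5 drives inflammatory cytokines, IRF4 accompanies alternative activation, and IRF8 acts with PU.1 in the myeloid lineage.

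The 4 libraries each had 13813 to 13970 loci above 0. Levels are in FPKM, fragment counts scaled by transcript length and by library size, so they can be set side by side between genes. From the steps of low values and the lengths of coding transcripts, they rest on about 454 to 1244 fragments for each member in each library. Counting error alone would give the difference between groups an SE of 0.0453 to 0.0652 on the log2 scale, depending on the member. The targeted gene, Ch25h, stood at 63.3 and 65.3 FPKM in Ch25h_WT and at 4.25 and 5.53 FPKM in Ch25h_KO. Apoe was 614 and 610 FPKM against 3683 and 3373 FPKM, although all groups carry the ApoE-/- label, so the groups also differ at Apoe and what belongs to each locus cannot be told apart. The 9 macrophage markers were all detected, with summed levels of 27060 and 28030 FPKM in Ch25h_WT and 29080 and 28380 FPKM in Ch25h_KO, a sum made up mostly of Lyz2 and Cd14. Of these markers 2 were positive and 7 negative in log2 change. Adgre1 (F4/80), Csf1r and Msr1 were lower in both Ch25h_KO libraries, while Cd14 and Fcgr1 were higher in both. Over all tested loci, both Ch25h_KO libraries lay below both Ch25h_WT libraries at 30.3% and above them at 23.4%. Adgre1 was 418 and 425 against 381 and 387.5 FPKM, Csf1r was 306 and 316 against 274 and 291 FPKM, and Msr1, a scavenger receptor, was 330 and 355 against 277 and 274 FPKM (limma adjusted p = 0.111). Cd14 was 5178 and 5288 against 6870 and 6751 FPKM (limma adjusted p = 0.0783), and Fcgr1 was 4.31 and 4.22 against 4.83 and 4.78 FPKM.

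In the Ch25h_WT libraries Irf1 and Irf5 were the most abundant members and Irf4 and Irf9 the least. Mean levels there ran from Irf1 at 44.8 FPKM through Irf5 at 42.8, Irf8 at 34.2, Irf2 at 30.8, Irf7 at 27.5, Irf3 at 24.9 and Irf9 at 15.5 down to Irf4 at 14.4 FPKM, and no neighbours in that order overlapped between the 2 libraries. In the Ch25h_KO libraries the order was Irf5 at 43.0, Irf1 at 42.8, Irf7 at 38.5, Irf8 at 30.9, Irf2 at 30.1, Irf3 at 25.4, Irf4 at 18.1 and Irf9 at 15.9 FPKM, and among neighbours Irf5 and Irf1 overlapped. Irf7 was thus the fifth in Ch25h_WT and the third in Ch25h_KO, above Irf8 and Irf2, and Irf4 stood above Irf9 in the Ch25h_KO libraries alone. The levels lay between percentiles 57.0 and 83.7 of the tested loci.

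**Figure D1:**
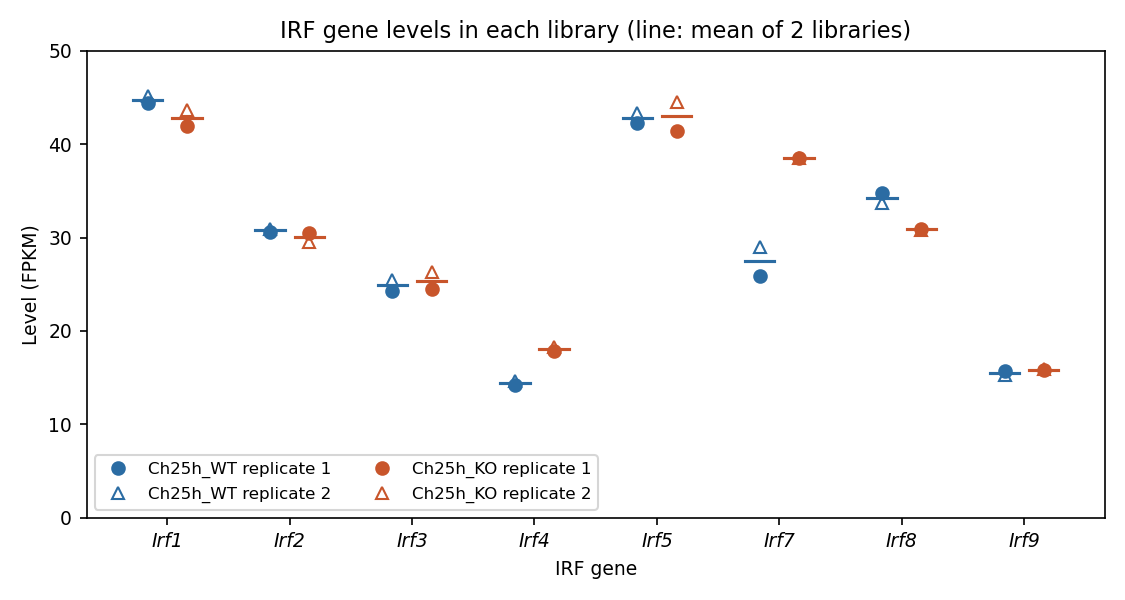
Level of each IRF gene in FPKM (vertical axis, from 0) in the 2 Ch25h_WT and 2 Ch25h_KO libraries, with points for single libraries and lines for group means. The Ch25h_KO points of Irf7 (38.6 and 38.5 FPKM) and Irf4 (17.8 and 18.3 FPKM) lie above both Ch25h_WT points, and those of Irf8 (30.9 and 30.8 FPKM) lie below.

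Irf7 showed the greatest difference of the 8 members. Its gene product is the interferon-inducible amplifier of type I interferon production. Irf7 measured 25.9 and 29.0 FPKM in Ch25h_WT, and 38.6 and 38.5 FPKM in Ch25h_KO. Both Ch25h_KO libraries were above both Ch25h_WT libraries, and the Ch25h_WT pair was the more spread of the 2. The mean was 1.40 times as high in Ch25h_KO (27.5 ± 2.23 against 38.5 ± 0.0704 FPKM, SD, n = 2 libraries per group), with a log2(FPKM + 1) change of 0.48 (SE 0.073, unadjusted 95% interval 0.28 to 0.67, limma adjusted p = 0.0966), which did not pass the threshold of 0.05. A change of that size or more was seen at 2.32% of the tested loci. The adjusted p was 0.0472 when the filter was raised to a mean of 5 FPKM and 0.00299 when limma modelled the spread with its trend and robust options, and over all alternatives it ranged up to 0.291.

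Irf4 was second in size. It encodes the partner of PU.1 that is also needed for plasma cells and for the response to interleukin 4. Irf4 measured 14.3 and 14.6 FPKM in Ch25h_WT, and 17.8 and 18.3 FPKM in Ch25h_KO. The groups did not overlap, and the libraries of each group lay close together. The mean was 1.25 times as high in Ch25h_KO (14.4 ± 0.260 against 18.1 ± 0.365 FPKM, SD, n = 2 libraries per group), with a log2 change of 0.30 (SE 0.054, unadjusted 95% interval 0.16 to 0.45, limma adjusted p = 0.104), again short of the threshold, and 7.495% of tested loci had a change as large. With the trend and robust options the adjusted p was 0.0202, and over all alternatives it ranged up to 0.342.

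Irf8 was the member with the lowest value relative to Ch25h_WT. Its product directs monocyte and dendritic cell development and sustains macrophage antimicrobial genes. Irf8 measured 34.8 and 33.7 FPKM in Ch25h_WT, and 30.9 and 30.8 FPKM in Ch25h_KO. The groups did not overlap, with a mean 0.902 times as high in Ch25h_KO and a log2 change of -0.14 (SE 0.053, unadjusted 95% interval -0.28 to -0.0054, limma adjusted p = 0.229), which did not pass. Changes of that size were common, at 32.4% of tested loci.

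The other 5 members differed little, and their intervals bound what could have been missed. Irf1, induced by interferon gamma and by NF-kB, was 44.4 and 45.1 FPKM in Ch25h_WT against 42.0 and 43.6 FPKM in Ch25h_KO, with a log2 change of -0.063 (95% interval -0.21 to 0.080, limma adjusted p = 0.55). Its competitor Irf2 was 30.6 and 31.0 against 30.5 and 29.6 FPKM, a log2 change of -0.034 (95% interval -0.17 to 0.10, limma adjusted p = 0.746). For each of these genes both Ch25h_KO libraries were the lower, by margins small beside the interval. Irf3, the constitutive factor that starts the interferon response, was 24.3 and 25.5 against 24.5 and 26.3 FPKM, with a log2 change of 0.027 (95% interval -0.14 to 0.19, limma adjusted p = 0.844). Irf9, which brings ISGF3 to DNA, was 15.7 and 15.3 against 15.8 and 15.95 FPKM, with a log2 change of 0.033 (95% interval -0.10 to 0.17, limma adjusted p = 0.755). Irf5, the factor of inflammatory cytokine genes, was 42.2 and 43.3 against 41.4 and 44.6 FPKM, with a log2 change of 0.0057 (95% interval -0.16 to 0.17, limma adjusted p = 0.973). The Ch25h_KO libraries lay on both sides of the Ch25h_WT pair for Irf5, and the groups overlapped for Irf3 as well. Without Ch25h_WT replicate 1 or Ch25h_KO replicate 2 the log2 change was -0.0064 or -0.023 for Irf3 and -0.012 or -0.047 for Irf5, so neither gene carries a direction here.

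**Figure D2:**
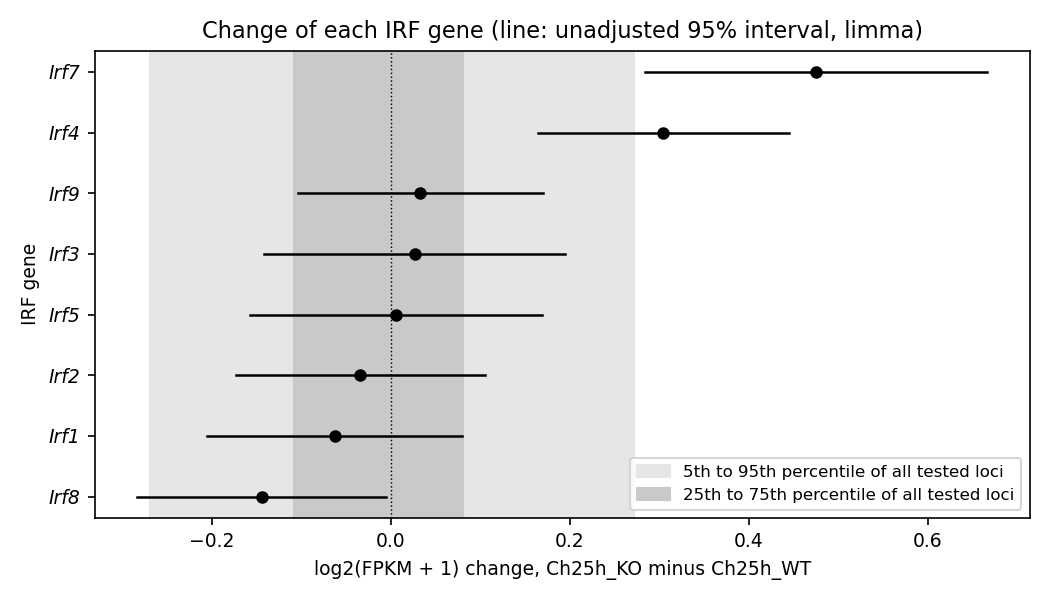
Difference in log2(FPKM + 1) between Ch25h_KO and Ch25h_WT for each IRF gene (points, with unadjusted 95% intervals from limma), over the 5th to 95th and 25th to 75th percentiles of all 10074 tested loci (-0.27 to 0.27 and -0.11 to 0.080). Irf7 and Irf4 lie beyond the 95th percentile, Irf8 lies between the 5th and the 25th, and the other 5 lie inside the inner band.

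Across the family, 0 of 8 members passed limma's adjusted threshold, where 0.437% of all tested loci did. At an unadjusted p under 0.05, 2 members were higher (Irf7 and Irf4) and 1 was lower (Irf8), against 9.38% of tested loci on the higher side and 11.5% on the lower side. With the trend and robust options, Irf7 and Irf4 passed on the higher side, where 4.04% of loci did so. Non-overlap of the libraries was common in the whole table, with 23.4% of loci apart on the higher side and 30.3% on the lower side, beside which stand 3 of 8 members apart above (Irf4, Irf7 and Irf9) and 3 of 8 apart below (Irf1, Irf2 and Irf8). The median log2 change of the 8 members was 0.016, beside -0.014 over all tested loci.

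The summed level of the family was 235 ± 3.74 FPKM in Ch25h_WT and 245 ± 4.37 FPKM in Ch25h_KO (SD, n = 2 libraries per group). Irf7 made up 11.2% and 12.2% of that sum in the Ch25h_WT libraries and 15.97% and 15.5% in the Ch25h_KO libraries. Irf4 made up 6.14% and 6.16% against 7.37% and 7.40%, and Irf8 made up 15.0% and 14.2% against 12.8% and 12.4%. The mean share of Irf1 was 19.1% against 17.5%.

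Ratios between members of the same library do not depend on how libraries were scaled, and 5 pairs of opposed or complementary factors were compared. The ratio of Irf7 to Irf3, the inducible over the constitutive interferon activator, was 1.07 and 1.14 in Ch25h_WT and 1.58 and 1.46 in Ch25h_KO. The ratio of Irf8 to Irf4 was 2.44 and 2.30 against 1.74 and 1.68, and that of Irf5 to Irf4 was 2.96 and 2.96 against 2.32 and 2.43. The groups did not overlap for these 3 pairs, which moved by 1.38, 0.721 and 0.802 times. The ratio of Irf1 to Irf2 was 1.45 and 1.46 against 1.38 and 1.47, and that of Irf9 to Irf3 was 0.646 and 0.599 against 0.645 and 0.606, so both overlapped between the groups. An exact two-sided permutation test of 2 libraries against 2 cannot give less than p = 0.333, so it cannot call a ratio whatever its size, and the ratios are given as values.

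**Figure D3:**
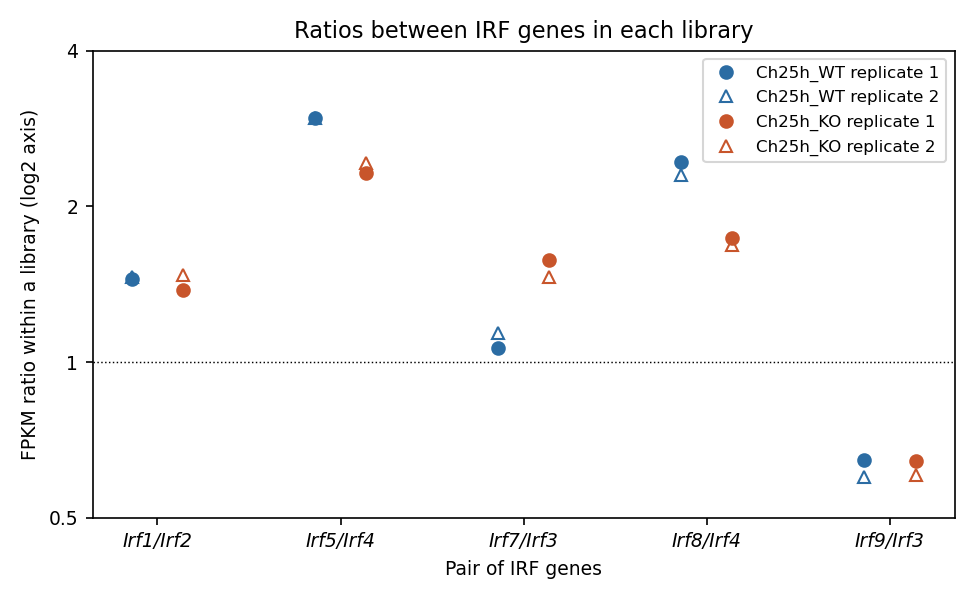
FPKM ratio between members of 5 pairs of IRF genes within each library (log2 vertical axis), with the 2 Ch25h_WT and 2 Ch25h_KO libraries as points. Irf7/Irf3 is higher in both Ch25h_KO libraries (1.58 and 1.46 against 1.07 and 1.14), Irf8/Irf4 and Irf5/Irf4 are lower, and Irf1/Irf2 and Irf9/Irf3 overlap.

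The promoters of the 3 members with an unadjusted p under 0.05 are shown with that of Irf1, whose level differed little, because the family is known to be controlled at its own promoters by interferon and NF-kB signals. Each window of 300 bases covers the annotated start site and the bases just before it, 5′ to 3′ on the gene's strand (RefSeq, GRCm38.p6; the table's own build is mm9). Capitals mark matches on either strand to GAAANNGAA (the IRF core), TTCNNNGAA (the core of STAT sites) or GGANNNNCC (part of a kB site). The Irf7 window is chr7:141266375-141266674 on the minus strand, that of Irf4 is chr13:30748983-30749282, that of Irf8 is chr8:120736108-120736407 and that of Irf1 is chr11:53769764-53770063, the last 3 on the plus strand.
Irf7: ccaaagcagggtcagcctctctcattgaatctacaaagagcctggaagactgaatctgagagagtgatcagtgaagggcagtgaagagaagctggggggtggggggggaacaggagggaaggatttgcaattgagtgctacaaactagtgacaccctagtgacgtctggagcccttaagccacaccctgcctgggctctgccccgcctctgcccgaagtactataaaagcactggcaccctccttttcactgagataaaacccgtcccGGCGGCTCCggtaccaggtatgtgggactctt
Irf4: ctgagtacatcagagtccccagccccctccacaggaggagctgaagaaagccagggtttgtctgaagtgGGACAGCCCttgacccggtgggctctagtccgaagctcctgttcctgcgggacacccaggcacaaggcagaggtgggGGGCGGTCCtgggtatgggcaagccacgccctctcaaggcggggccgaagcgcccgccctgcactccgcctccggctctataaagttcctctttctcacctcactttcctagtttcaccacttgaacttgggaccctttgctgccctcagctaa
Irf8: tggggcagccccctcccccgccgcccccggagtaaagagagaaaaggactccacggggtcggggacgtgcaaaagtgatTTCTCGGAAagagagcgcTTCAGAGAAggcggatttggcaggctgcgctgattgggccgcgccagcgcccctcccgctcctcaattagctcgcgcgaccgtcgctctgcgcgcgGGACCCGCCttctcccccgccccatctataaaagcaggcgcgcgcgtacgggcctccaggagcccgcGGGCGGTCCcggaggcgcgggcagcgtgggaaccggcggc
Irf1: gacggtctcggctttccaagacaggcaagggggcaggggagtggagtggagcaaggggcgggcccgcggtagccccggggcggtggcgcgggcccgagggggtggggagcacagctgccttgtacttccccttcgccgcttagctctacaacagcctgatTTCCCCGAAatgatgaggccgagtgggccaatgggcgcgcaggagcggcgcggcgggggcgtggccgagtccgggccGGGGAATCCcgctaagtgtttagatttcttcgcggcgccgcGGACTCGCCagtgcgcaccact
The STAT core was found in the windows of Irf1 (TTCCCCGAA, first base at -90 from the start site), Irf8 (TTCTCGGAA at -171 and TTCAGAGAA at -153) and Irf2, and not in those of Irf7 and Irf4. It is in 8.3% of the 32851 promoter windows of the genome table. The IRF core was found in Irf2 alone among the members (GAAAATGAA), and in 8.56% of all windows. Part of a kB site is in 48.4% of all windows and so tells members apart poorly, and the capitals in Irf7 and Irf4 are of this kind only. Irf1 and Irf8 each have another annotated window, not shown, with no match to any of these motifs. A match describes letters in a window and not binding.

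Among 14 listed partners and corepressors of IRF proteins 13 were tested. Of these, 0 passed limma's adjusted threshold, and 4 were higher and 0 lower at an unadjusted p under 0.05, with a median log2 change of 0.11. Over all tested loci 9.38% were higher and 11.5% lower at that p, and 0.437% passed the adjusted threshold. Nfatc1, which encodes a calcium-regulated factor, was 24.7 and 24.0 FPKM against 28.7 and 30.5 FPKM (limma adjusted p = 0.122). Irf2bp2, a corepressor that binds IRF2, was 40.9 and 38.1 against 48.8 and 45.5 FPKM (limma adjusted p = 0.162). Batf, the AP-1 partner of IRF4 and IRF8, and Prdm1, a target of IRF4 in plasma cells, were 1.18 times as high each in Ch25h_KO. Spi1, which encodes PU.1, was 353 and 335 against 371 and 369 FPKM, the most abundant of the list.

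Sensors and kinases that lead to IRF3, IRF5 and IRF7 differed little in most cases. Of 25 listed genes 24 were tested, of these 0 passed with limma, and the median log2 change was -0.040. At an unadjusted p under 0.05, 3 were higher and 1 was lower, beside 9.38% and 11.5% of all tested loci. Cd14, the lipopolysaccharide co-receptor, was 5178 and 5288 against 6870 and 6751 FPKM (limma adjusted p = 0.0783). Unc93b1, the chaperone of endosomal Toll-like receptors, was 113 and 110 against 133 and 127 FPKM (limma adjusted p = 0.15). Sting1, the adaptor of cytosolic DNA sensing, was 8.62 and 9.82 against 11.2 and 11.2 FPKM, while Tlr9, the DNA receptor, was 5.71 and 5.67 against 4.73 and 5.06 FPKM. The kinases that phosphorylate IRF3 and IRF7, Tbk1 and Ikbke, had ratios of 0.938 and 0.981, and Myd88 had 0.98.

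Interferons themselves were at or near 0. Of 16 interferon genes matched, 13 were listed at 0 in all 4 libraries, Ifnb1 among them, and the highest single value was 0.1954 FPKM. Their receptors were present and differed little. Of 11 tested receptors, JAK kinases and STAT factors 0 passed with limma, with a median log2 change of -0.0082. At an unadjusted p under 0.05, 1 was higher, beside 9.38% of all tested loci. This was Stat3, at 88.2 and 87.9 against 97.7 and 102 FPKM. Stat2, which joins Irf9 in ISGF3, was 6.68 and 7.06 against 7.17 and 7.43 FPKM. Ifnar1, a chain of the type I interferon receptor, was 36.4 and 37.5 against 33.3 and 33.7 FPKM (limma adjusted p = 0.244). Of 12 tested genes of negative feedback 0 passed with limma, and the median log2 change was 0.060. At an unadjusted p under 0.05, 2 were higher, Isg15 and Rnf125, beside 9.38% of all tested loci. Rnf125, a ubiquitin ligase of RNA sensors, was 1.46 and 1.35 against 2.39 and 2.23 FPKM.

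Among targets, more of the genes read by ISGF3 were higher than lower in Ch25h_KO, and their levels ran from under 1 FPKM to those of Isg15. Of 26 listed genes 19 were tested, 1 rose past limma's adjusted threshold and 0 fell. At an unadjusted p under 0.05, 6 were higher and 1 was lower, beside 9.38% and 11.5% of all tested loci. The median log2 change was 0.22. Zbp1, the Z-nucleic acid sensor, rose from 13.4 and 13.5 to 22.0 and 21.6 FPKM (limma adjusted p = 0.0345). Isg15, the ubiquitin-like modifier, was 41.0 and 51.6 against 67.2 and 66.3 FPKM (limma adjusted p = 0.125), and like Irf7 it was lower in Ch25h_WT replicate 1 than in replicate 2. Oas1g, a synthetase that activates RNase L, was 3.30 and 3.57 against 5.17 and 5.27 FPKM, and its near-identical copies leave its level uncertain. Parp14 was on the lower side, at 12.5 and 12.7 against 10.8 and 10.9 FPKM. Classical members such as Mx1 and Ifit3 stayed under 1 FPKM in every library, and Ifit1 reached 1.76 FPKM at most.

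Genes induced by interferon gamma through IRF1 had a median log2 change of 0.10 over the 18 genes left when Cxcl9 is set aside. Cxcl9 passed the filter of 1 FPKM only through the Ch25h_KO libraries, so a difference was built into its being tested. Without it, a count added after the data were seen, 1 rose (Nos2) and 0 fell past the adjusted threshold, and 7 were higher and 0 lower at an unadjusted p under 0.05. Over all tested loci the shares at that p were 9.38% higher and 11.5% lower. With it, of 22 listed genes 19 were tested, 2 rose past the adjusted threshold and 0 fell, 8 were higher and 0 lower at an unadjusted p under 0.05, and the median log2 change was 0.11. Nos2, which encodes the inducible synthase of nitric oxide, rose from 36.3 and 36.5 to 70.8 and 72.0 FPKM (limma adjusted p = 0.0117). Cxcl9, a T cell chemoattractant, rose from 0.293 and 0.366 to 1.88 and 1.80 FPKM (limma adjusted p = 0.0117). Gbp2, a guanylate-binding protein, was 50.1 and 52.1 against 81.0 and 90.5 FPKM (limma adjusted p = 0.0522), and Gbp5 was 9.32 and 9.003 against 12.3 and 12.2 FPKM. Among related GTPases Gbp3 had a ratio of 1.12, Irgm1 1.01, Igtp 0.968 and Irgm2 0.918, and none of these passed.

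Among cytokine genes tied to IRF5, of 10 listed genes 7 were tested, with a median log2 change of 0.18. Of these 1 rose past the adjusted threshold, Ccl5, from 127 and 142 to 333 and 319 FPKM (limma adjusted p = 0.0159). At an unadjusted p under 0.05, 5 were higher and 1 lower, beside 9.38% and 11.5% of all tested loci. Il1b was 211 and 227 against 314 and 305 FPKM, and Il6 was 77.4 and 83.0 against 102 and 103 FPKM. Tnf was on the other side, at 60.0 and 60.0 against 51.5 and 51.1 FPKM (limma adjusted p = 0.128). Il12b and Il23a, the textbook IRF5 targets, were under 0.5 FPKM in every library.

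Alternative activation genes tied to IRF4 went in both directions, and those past the threshold were on the side opposite to Irf4. Of 12 listed genes 11 were tested, 0 rose and 2 fell past the adjusted threshold, and the median log2 change was 0.072. At an unadjusted p under 0.05, 1 was higher and 3 were lower, beside 9.38% and 11.5% of all tested loci. Arg1, the arginase, fell from 920 and 910 to 595 and 573 FPKM (limma adjusted p = 0.035), and Retnla, a secreted resistin-like protein, fell from 900 and 909 to 589.5 and 588.8 FPKM (limma adjusted p = 0.035). The lectin gene Mgl2 was 2.30 and 2.40 against 1.43 and 1.25 FPKM (limma adjusted p = 0.0725). Chil3, a chitinase-like protein, was on the side of Irf4, at 15.4 and 14.1 against 18.6 and 18.3 FPKM (limma adjusted p = 0.12). Kdm6b, the histone demethylase placed upstream of Irf4, had a ratio of 1.05. Of 11 listed myeloid genes tied to IRF8 10 were tested and 0 passed with limma, with a median log2 change of 0.012. At an unadjusted p under 0.05, 3 were higher and 0 lower, beside 9.38% and 11.5% of all tested loci. Those higher were Cd74 (1.24 times as high), Slc11a1, the phagosomal metal transporter (1.17 times), and Id2 (1.12 times). Cybb, the phagocyte oxidase subunit, had a ratio of 0.953.

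**Figure D4:**
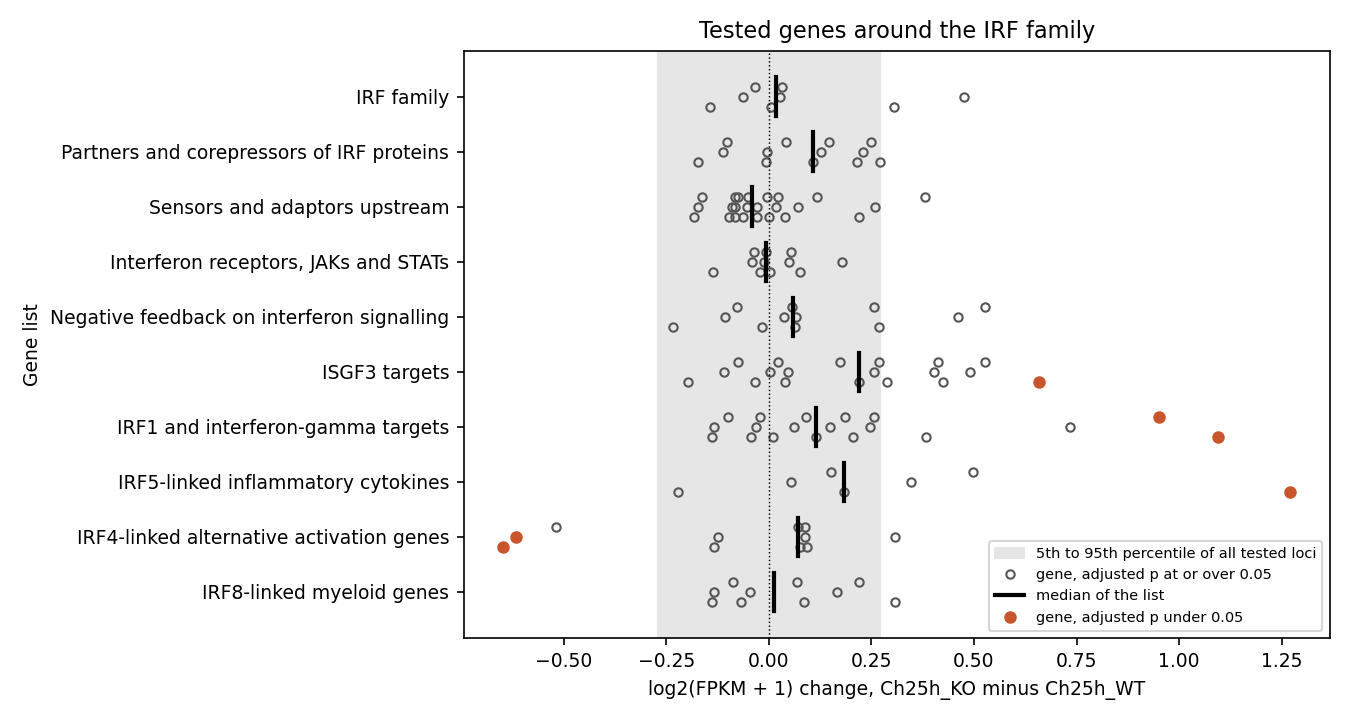
Difference in log2(FPKM + 1) between Ch25h_KO and Ch25h_WT for the tested genes of 10 lists around the IRF family, with 1 circle per gene, filled where the limma adjusted p was under 0.05, and the median of each list as a bar over the 5th to 95th percentile of all tested loci. The filled points are Zbp1, Nos2, Cxcl9 and Ccl5 on the higher side and Arg1 and Retnla on the lower side, and the medians run from -0.040 to 0.22.

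The 3 loci whose values over the 4 libraries were most like those of Irf7, by the root mean square distance of centred log2 values, were Fcgr4 (distance 0.0185), an activating Fc receptor, Il1b (0.0254), and Eng (0.0278), the endoglin co-receptor. Fcgr4 was 51.2 and 57.2 FPKM in Ch25h_WT and 77.2 and 77.8 FPKM in Ch25h_KO.

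Markers of other cells that express IRF genes moved with the groups in part. In bulk RNA, fewer cells of a type and less RNA per cell cannot be told apart. The 8 B cell markers, of a lineage that expresses Irf4 and Irf8, summed to 337 and 341 FPKM in Ch25h_WT and 306 and 323 FPKM in Ch25h_KO, with 5 of 7 tested members apart on the lower side and Blk apart on the higher side. Over all tested loci 30.3% were apart on the lower side and 23.4% on the higher. For plasmacytoid dendritic cells, which are rich in Irf7 and Irf8, the defining marker Siglech was at most 0.0426 FPKM and Klk1 was at 0 in every library, while the whole list of 8 summed to 170 and 166 against 180 and 174 FPKM, nearly all of it Bst2 and Ly6d. Of the 8 conventional dendritic cell markers Clec9a, Xcr1 and Flt3 stayed under 0.6 FPKM, and the sum was 44.7 and 43.8 against 53.4 and 49.5 FPKM, mostly Cd209a and Ccr7. Flt3 was lower in both Ch25h_KO libraries, while Xcr1, Cd209a and Ccr7 were higher in both. Zbtb46, a defining marker, had a ratio of 0.911 and overlapped between the groups, as did Clec9a, Itgae and Batf3. The 9 mast cell markers summed to 237 and 244 against 168 and 170 FPKM. Of these, 6 of 8 tested were lower at an unadjusted p under 0.05, beside 11.5% of all tested loci. The 9 matched neutrophil markers summed to 72.3 and 83.1 against 117 and 117 FPKM, with Ly6g not matched. Nearly all of that sum was S100a8 and S100a9, while Cxcr2, Camp and Mpo, all low, were lower in both Ch25h_KO libraries (Cxcr2 at 0.507 and 0.665 against 0.492 and 0.428 FPKM). Ngp, also low, was higher in both (0 and 0 against 0.0911 and 0.292 FPKM), and Retnlg, Elane and Ltf overlapped between the groups. The 8 monocyte markers summed to 2147 and 2191 against 1911 and 2089 FPKM, while Ly6c2 rose from 3.12 and 2.70 to 14.3 and 17.3 FPKM (limma adjusted p = 0.0117). The 9 matched T and NK cell markers summed to 6.12 and 7.51 against 7.03 and 8.88 FPKM. The 8 resident macrophage markers summed to 2969 and 3047 against 2975 and 3029 FPKM, with members in both directions. Among them Timd4 was 1.32 times and Icam2 1.34 times as high in Ch25h_KO (limma adjusted p = 0.0966 and 0.078), and Fcna was 0.901 times as high. Eosinophil (6) and mesothelial and fibroblast (9) markers summed to 2.09 to 2.56 and 1.39 to 4.997 FPKM over the libraries, the latter higher in both Ch25h_KO libraries. The part of these cells in the differences of Irf7, Irf4 and Irf8 was not tested.

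Overlapping transcripts on opposite strands can share fragments where strand is not recorded, and those on the same strand can share them in any case. The exons of Irf7 overlap 45 bases of Phrf1 on the other strand, and Phrf1 was 18.5 and 18.2 against 17.5 and 18.01 FPKM, lower in both Ch25h_KO libraries. Exons of Irf1 overlap those of Gm17334, for which no value was matched, and exons of Irf3, Irf5 and Irf9 overlap those of Bcl2l12, Tnpo3 and Rnf31, which had values below their neighbour in every library. Rnf31 lies on the same strand as Irf9, with an overlap of 123 bases, and was 11.6 and 10.9 against 12.4 and 11.9 FPKM. No other annotated exon overlapped Irf2, Irf4 or Irf8.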

How the data were processed

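RNA-seq values of 4 peritoneal macrophage libraries, 2 per genotype, were used. The authors deposited FPKM per locus and library. The file header names no unit, and FPKM is taken from the values and from the submitters' processing notes, which name bcl2fastq, TopHat2 2.0.14, Cufflinks 2.2.1 and mm9. The sources used here do not give the annotation, strandedness or scaling. Lines of 1 locus (24192 lines, 23735 loci) were joined, and 0 per-sample columns were left out. Log2(FPKM + 1), which understates the change of low genes, was fitted for all loci whose mean reached 1 FPKM (limma 3.58.1, R 4.3.3; genotype as the term; Benjamini-Hochberg; threshold 0.05). Intervals are 95% limma intervals, not adjusted for the number of loci. On simulated data with these 10074 loci the fit recovered 67.9% of 1.5-fold, 91.7% of 2-fold and 98.9% of 4-fold changes, and 4.42% of calls were false. The simulated spread was drawn from limma's own model, whatever the level of the locus. In each run 200 loci were changed, all at 5 FPKM or more, while 44 loci passed in the data. These shares therefore hold under the fit's own assumptions, and recovery in the data may be lower. Relative depths of 1, 0.8, 0.824 and 0.77 were read from the steps of values under 0.5 FPKM; fragments per gene are approximate, from GENCODE coding transcript lengths, and cover counting error only. Promoters came from RefSeq by symbol, which matched all 8 members, and exon overlaps from GENCODE vM21.

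The members and lists were chosen with earlier results of these data known. Named are all members, Ch25h, Apoe and, from each list, genes past the adjusted threshold plus at most 2 higher and 2 lower with the smallest unadjusted p under 0.05. The other list genes with values were chosen after these were seen, and some genes under the rule are not reported here. Of 249 list names 246 matched the table, and Nox2, an older name of Cybb, was dropped. Alternatives were pseudocount, filter, spread model, scaling, a replicate block and each library left out.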

Additional observations from a re-analysis of the deposited data

How the results depend on the processing

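The difference at Irf7 kept its direction under all 11 alternatives (log2 change 0.40 to 0.56), as did Irf4 (0.28 to 0.32), Irf8 (-0.17 to -0.12), Irf1 (-0.090 to -0.036), Irf2 (-0.056 to -0.013) and Irf9 (0.015 to 0.051). Most of these alternatives could not reverse a sign. Filter, spread model and block leave the log2 change as it is. Where groups do not overlap, as for these members, neither a left-out library nor another pseudocount can reverse it. Only the scaling settings could have done so. The number of members past the adjusted threshold was 0 in the reported fit and 0 without each library, 1 with the filter at 5 FPKM (Irf7, adjusted p = 0.0472, log2 change 0.48), where fewer loci were tested, and 2 with the trend and robust options (Irf7 at 0.48, adjusted p = 0.00299, and Irf4 at 0.30, adjusted p = 0.0202). Over all loci 44 passed, against 18 with no filter, 175 at 5 FPKM, 786 with trend and robust options and 13 to 21 with a library left out, where the lone library of a group is assumed to vary like the others. The number was 6 with a replicate block, under which 0 members passed. The deviations of same-numbered libraries were not correlated (r = 0.0039 over 7221 loci), so no shift shared by same-numbered libraries was seen. This value cannot tell whether they were collected or prepared together.

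The sign changed for Irf5 under upper quartile scaling (-0.0042) and, with libraries left out, for Irf5 (-0.047 to 0.058) and Irf3 (-0.023 to 0.076). The log2 ratio difference of Irf1/Irf2 ranged from -0.079 to 0.021 and that of Irf9/Irf3 from -0.047 to 0.061 with libraries left out. The cause was not tested. With 2 libraries per group and 2 residual degrees of freedom, the test borrows from the spread of all loci, and the prior adds 2.67 degrees of freedom.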

Other observations

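The promoter windows shown for Irf4, Irf7 and Irf8 each hold TATAAA on the gene's strand, with its first base at -26, -29 and -31 from the annotated start. Another annotated window of Irf8, not shown, does not hold TATAAA. The windows of Irf1, Irf2, Irf3, Irf5 and Irf9 do not hold it either, and 8.32% of all 32851 windows do. The motif was chosen after the sequences were seen. The 3 genes with it in the window shown are the 3 members with an unadjusted p under 0.05, in either direction. That is a description of 8 genes and not a test.

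The 4 genes with the highest levels in the ISGF3 list did not all differ alike. Isg15 was 1.44 times as high in Ch25h_KO, Zbp1 1.62 times and Oas1a 1.34 times, while Trim30a, at 19.0 and 17.6 against 18.6 and 18.01 FPKM, had a ratio of 1.00. Within the guanylate-binding proteins Gbp2, Gbp5 and Gbp3 had ratios of 1.68, 1.34 and 1.12, and Gbp7 had 0.972. Some ISGF3 targets under the filter of 1 FPKM were also apart on the higher side. Mx1, an antiviral GTPase, was 0.1245 and 0.117 against 0.491 and 0.434 FPKM, and Ifit3 was 0.2004 and 0.2004 against 0.389 and 0.364 FPKM, levels that rest on few fragments and were not tested in the reported fit.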
